A study of Homo sapiens with 30 samples.

Results

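The Krüppel-like factors (KLF proteins) are zinc-finger transcription factors, and 10 of their genes are described here: KLF2, KLF3, KLF4, KLF5, KLF6, KLF7, KLF8, KLF10, KLF12 and KLF13. They were chosen by name from the 27348 genes with values in both deposited RNA count tables, and all 10 were found and passed the filter on low counts. The cells were RUES2, a human embryonic stem cell line, kept in TeSR E7 medium with rock inhibitor. RNA was sequenced from 16 libraries, 2 in each of 8 groups, at 24 h or 48 h.

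At 24 h there were 4 groups. E7 received no added factor, WNT received Wnt3a at 100 ng/mL, E7_CPI received CPI-203 at 1 µM, and WNT_CPI received both. CPI-203 is a small-molecule inhibitor of the BET bromodomain proteins, which bind acetylated histones. The 4 groups at 48 h had a second day of culture. E7_ACT received no Wnt3a and then Activin A at 10 ng/mL, WNT_E7 received Wnt3a and then no Activin A, WNT_ACT received Wnt3a and then Activin A, and WNT_CPI_ACT received Wnt3a with CPI-203 on day 1 and then Activin A on day 2. All groups share the cell line and the medium, so each result is for 1 line. No group received CPI-203 and then a second day without Activin A. The labels do not say whether the replicates of a group came from separate cultures, so the spread behind each p-value is that between libraries and may be technical.

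KLF proteins share 3 zinc fingers at the carboxyl end that bind CACCC and GC-rich elements, and differ in the amino-terminal region that recruits cofactors. KLF2, KLF4, KLF5, KLF6 and KLF7 act mainly as activators, KLF3, KLF8 and KLF12 bind the corepressor CtBP, and KLF10 and KLF13 bind the corepressor SIN3A. KLF2, KLF4 and KLF5 are known from embryonic stem cells, where they take part in self-renewal, and KLF4 is one of the factors used to reprogram somatic cells to pluripotency.

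The libraries held between 36268324 and 43347733 counts. POU5F1, the defining factor of pluripotent cells, stood between 483 and 976 CPM in the libraries of groups without CPI-203, at 551 and 556 CPM in WNT_CPI_ACT, and between 238 and 289 CPM in the 24 h groups given CPI-203. CPM here are counts scaled to the library total and edgeR's TMM factor. They are not divided by gene length, so levels are compared between groups and never between genes. These are bulk samples, in which fewer cells of a type and less RNA per cell cannot be told apart.

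The deposited column of E7_CPI replicate 1 needs a caution that touches every result. As deposited its values were not aligned with the genes beside them, and its Spearman correlation with the remaining libraries was at most 0.00712 in size. Aligned to the genes as the replicate 2 table lists them, it correlated with the other libraries at 0.954 to 0.986, and it is used in that order here. It then lay much closer to E7_CPI replicate 2 than the replicates of any other group lay to each other. The chi-square per degree of freedom between the replicates was 3.25 in E7_CPI and 96.9 to 164 in the other 7 groups. On the second principal component, which held 20.1% of the variance, the other 7 replicate 1 libraries had negative scores and all replicate 2 libraries had positive ones, while the rearranged column scored 18.1 and E7_CPI replicate 2 scored 16. The column may be a repeat run of replicate 2, which was not tested. If so, E7_CPI is 1 library and its values with 16 libraries rest on no independent replicate. Every call is therefore given with all 16 libraries and again with 15, leaving that column out, and "rose" and "fell" are kept for genes that passed in both. With 15 libraries E7_CPI has 1 library, whose spread is taken from the other groups.

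Calls were made at an adjusted p under 0.05 by edgeR's quasi-likelihood test, with Benjamini-Hochberg adjustment over all 17355 genes tested (17793 with 15 libraries). Over 12 comparisons, 15 of the 120 member values were called with 16 libraries and 12 with 15 libraries. KLF2, KLF4, KLF5 and KLF6 held all of these calls. The members' shares were 12.5% and 10%, beside 9.81% and 7.03% of all values of all genes tested. In the other 7 groups the replicate numbers paired the libraries, and a model that blocks on this number, without the rearranged column, called 33 (27.5%, beside 19.4% of all genes' values). That value, "with the block" below, is given where it changes a call.

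The promoters of the 4 genes that held the calls are shown here. Promoter entries from RefSeq (GRCh38.p14) were read for 8 of the 10 members, with 18 listed starts. KLF3 and KLF10 are not among them, and the search for KLF10 was not made. Each line gives the 250 bases before a start, 5′ to 3′ on the strand of the gene, with capitals for a match to CACCC or to GGGCGG on either strand. They lie at chr19:16324576-16324825 on the plus strand for KLF2, at chr9:107489770-107490019 on the minus strand for KLF4, at chr13:73054726-73054975 and chr13:73058755-73059004 on the plus strand for KLF5, and at chr10:3785210-3785459 on the minus strand for KLF6.
KLF2: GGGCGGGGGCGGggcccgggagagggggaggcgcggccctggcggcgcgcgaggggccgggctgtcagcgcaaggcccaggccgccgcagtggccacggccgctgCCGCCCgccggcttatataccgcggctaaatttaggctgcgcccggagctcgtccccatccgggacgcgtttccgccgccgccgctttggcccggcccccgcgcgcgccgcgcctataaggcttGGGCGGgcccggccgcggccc
KLF4: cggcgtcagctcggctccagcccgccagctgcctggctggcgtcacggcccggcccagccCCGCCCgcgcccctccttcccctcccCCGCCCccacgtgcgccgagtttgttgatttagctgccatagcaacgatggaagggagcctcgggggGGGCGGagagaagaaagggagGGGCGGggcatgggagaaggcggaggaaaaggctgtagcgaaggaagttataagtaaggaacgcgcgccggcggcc
KLF5 upstream start: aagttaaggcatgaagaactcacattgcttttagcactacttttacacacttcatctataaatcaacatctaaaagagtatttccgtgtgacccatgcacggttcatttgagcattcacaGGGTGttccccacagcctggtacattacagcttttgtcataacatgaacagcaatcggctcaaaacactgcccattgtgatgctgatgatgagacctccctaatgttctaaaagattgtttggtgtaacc
KLF5 downstream start: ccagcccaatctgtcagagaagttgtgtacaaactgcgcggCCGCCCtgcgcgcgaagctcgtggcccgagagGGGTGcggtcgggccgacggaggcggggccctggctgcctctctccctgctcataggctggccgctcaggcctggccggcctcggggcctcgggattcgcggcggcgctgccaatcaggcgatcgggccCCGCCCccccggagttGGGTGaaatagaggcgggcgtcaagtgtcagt
KLF6: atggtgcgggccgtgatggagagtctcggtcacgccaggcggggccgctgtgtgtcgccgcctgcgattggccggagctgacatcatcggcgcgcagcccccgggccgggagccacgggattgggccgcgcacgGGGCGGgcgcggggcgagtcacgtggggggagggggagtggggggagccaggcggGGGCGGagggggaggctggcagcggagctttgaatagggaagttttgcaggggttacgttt

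The KLF2 window is 80.0% G and C and holds 4 matches to GGGCGG, of which a pair adjoin at its 5′ end. The KLF4 window also holds 4 and the KLF6 window holds 2, and none of these 3 windows holds CACCC. The 2 listed starts of KLF5 differ: the upstream window is 40.8% G and C with 1 match to CACCC and no match to GGGCGG, and the downstream window is 70.8% G and C with 2 of each. Over 35116 promoter windows of the same length, 54.7% hold CACCC and 42.6% hold GGGCGG, so either motif is common. The letters CTTTGAT, a site of the Wnt-responsive TCF and LEF factors, were in none of the 18 member windows and in 2.26% of all. These are descriptions of letters in a window and say nothing of binding.

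**Figure D1:**
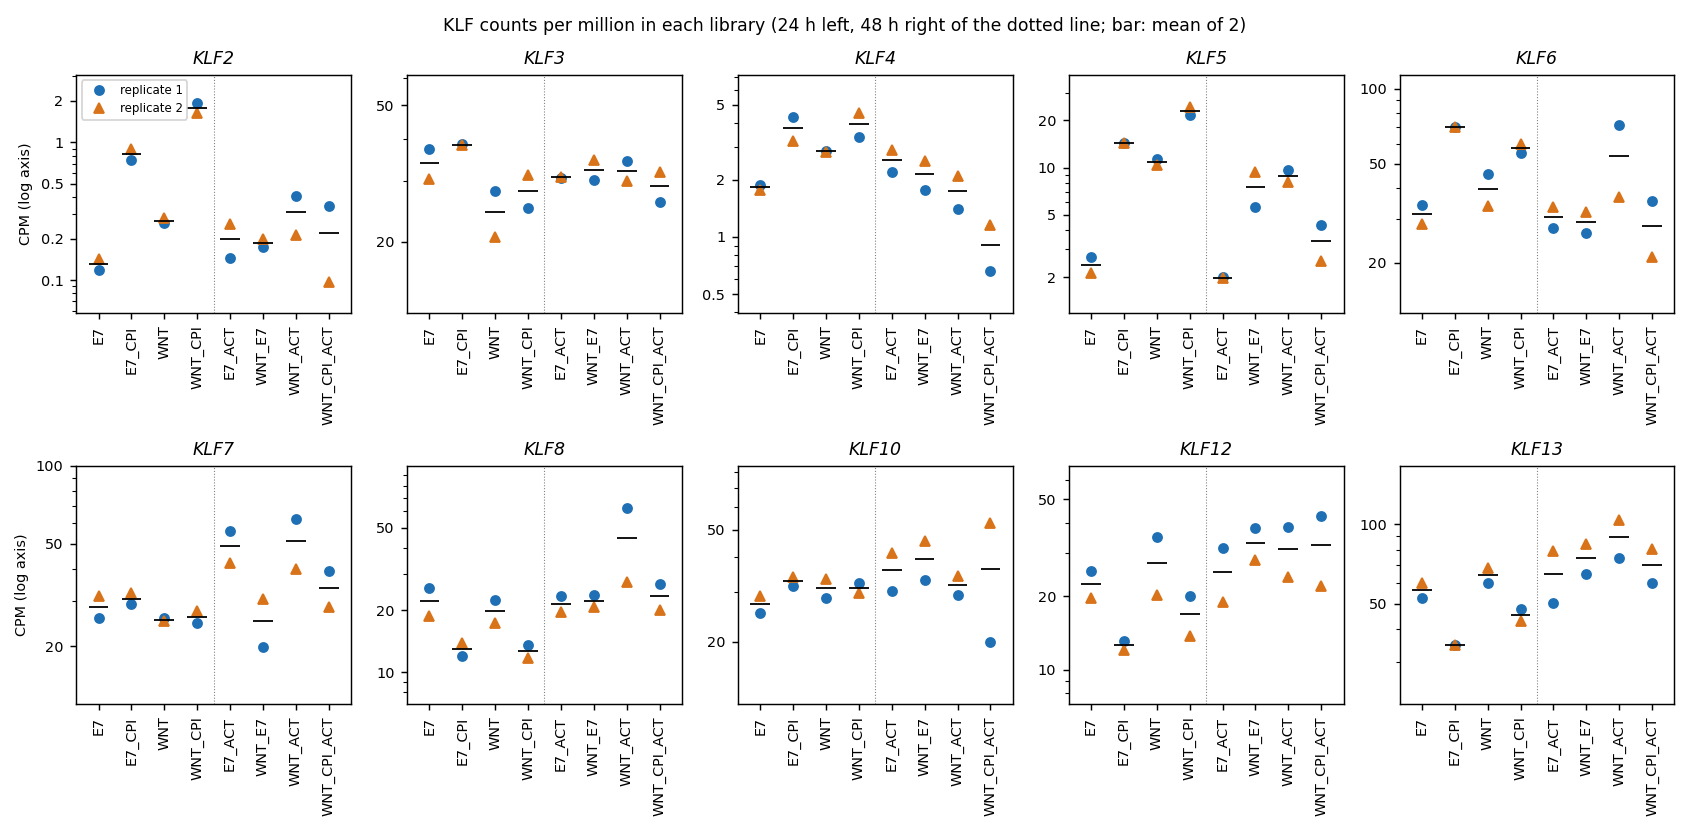
CPM of each KLF gene (log axis, own scale for each gene) in the 8 groups, with circles for replicate 1, triangles for replicate 2 and a bar for their mean. KLF5 is lowest in E7 and E7_ACT and highest in WNT_CPI, and KLF2 stands above its other groups in E7_CPI and WNT_CPI.

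Wnt3a raised KLF5 and no other member passed the test. KLF5, an activator of stem cell and epithelial genes, stood at 2.67 and 2.13 CPM in E7 and at 11.3 and 10.4 CPM in WNT at 24 h. Every WNT library lay above every E7 library. The increase was 4.52-fold (log2 2.18, SE 0.29, adjusted p = 0.00970 with 16 libraries and 0.0272 with 15). Of all genes tested in this comparison, 0.605% were called (0.427% with 15 libraries and 2.33% with the block). After the second day KLF5 stood at 2.00 and 1.97 CPM in E7_ACT and at 9.58 and 8.09 CPM in WNT_ACT. This increase was 4.45-fold (log2 2.15, SE 0.29, adjusted p = 0.00440 with 16 libraries and 0.0126 with 15), where 3.84% of genes were called (2.13% with 15 libraries and 11.4% with the block). Both calls lean on single libraries. The adjusted p at 24 h was 0.0816 without E7 replicate 1, 0.173 without E7 replicate 2 and 0.0586 without WNT replicate 1, and at 48 h it was 0.0594 without E7_ACT replicate 1, while the log2 values stayed between 2.02 and 2.35 in those fits.

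The other 9 members were not called with Wnt3a at 24 h. KLF2 had a log2 difference of 1.02 (95% interval -0.25 to 2.28) on 5 and 6 counts in E7 and 11 and 10 counts in WNT, which leaves its size poorly known. KLF4, the reprogramming factor, had 0.63 (interval -0.09 to 1.36), and KLF3 had -0.48 (interval -0.89 to -0.06) at an unadjusted p of 0.0283. The remaining 6 lay between -0.17 and 0.34. The median over the 10 members was 0.24, against 0.02 over all genes tested.

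At 48 h, KLF8 joined KLF5 under the replicate block. KLF8, a CtBP-binding repressor, stood at 23.4 and 19.5 CPM in E7_ACT and at 62.4 and 27.4 CPM in WNT_ACT. WNT_ACT replicate 1 is far above its partner, and the groups do not overlap. The log2 difference was 1.06 (SE 0.33), with an adjusted p of 0.132 with 16 libraries, 0.189 with 15 and 0.00968 with the block. Without WNT_ACT replicate 2 the difference was 1.54, which rests on the high replicate 1 alone in WNT_ACT. KLF6, an activator first known from injury responses, had the same shape, with 27.7 and 33.5 CPM in E7_ACT and 71.3 and 36.6 CPM in WNT_ACT. Its difference of 0.82 (SE 0.31) was not called with 16 libraries, with 15 or with the block, at adjusted p values of 0.251, 0.343 and 0.103.

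**Figure D2:**
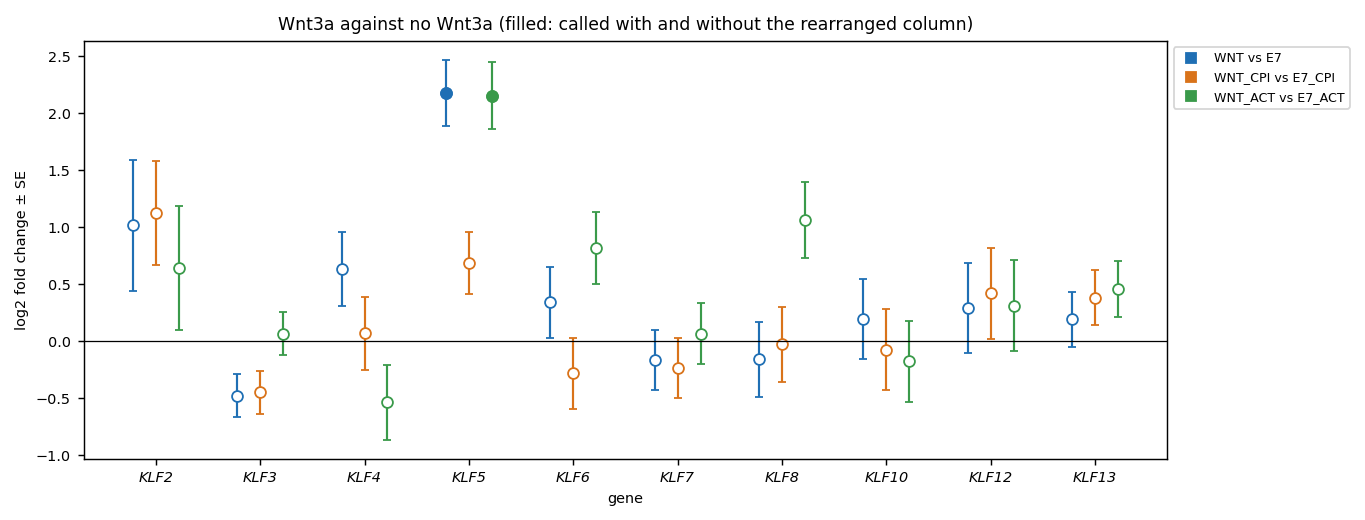
Log2 fold change of each KLF gene with Wnt3a against no Wnt3a, at 24 h, at 24 h with CPI-203 present in both groups, and at 48 h with Activin A in both groups (points, with SE bars). Filled points passed the test with and without the rearranged column, and KLF5 at 2.18 and 2.15 is the only gene with filled points.

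CPI-203 raised KLF2 and KLF5 in both media at 24 h. KLF2, an activator known for quiescence in endothelial cells and lymphocytes, stood at 0.119 and 0.143 CPM in E7 and at 0.741 and 0.892 CPM in E7_CPI. With Wnt3a it stood at 0.258 and 0.280 CPM in WNT and at 1.93 and 1.63 CPM in WNT_CPI. All CPI-203 libraries of 24 h lay above all other libraries of the series, whose highest was 0.410 CPM in WNT_ACT replicate 1. The increase was 6.10-fold without Wnt3a (log2 2.61, SE 0.54, adjusted p = 0.00430 with 16 libraries and 0.0183 with 15) and 6.57-fold with it (log2 2.72, SE 0.50, adjusted p = 0.00224 and 0.00501). The gene remained sparse, at 27 to 79 counts per CPI-203 library of 24 h and 5 to 11 in E7 and WNT. Of all genes, 32.7% were called for E7_CPI against E7 (17.5% with 15 libraries and 44% with the block) and 31% for WNT_CPI against WNT (26.5% with 15 libraries and 52.9% with the block), so a call with CPI-203 is common.

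KLF5 rose from the E7 values above to 14.3 and 14.3 CPM in E7_CPI, and from the WNT values to 21.5 and 24.5 CPM in WNT_CPI. Within each medium the groups did not overlap. The increase was 5.97-fold without Wnt3a (log2 2.58, SE 0.30, adjusted p = 0.000133 with 16 libraries and 0.00158 with 15). With Wnt3a it was 2.12-fold (log2 1.08, SE 0.28, adjusted p = 0.0129 and 0.0235). The latter call was lost without WNT replicate 1 (adjusted p = 0.0556), without WNT replicate 2 (0.0799) and without WNT_CPI replicate 2 (0.0713).

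The values of KLF5 at 24 h were thus lowest in E7, higher with either agent and highest with both. The step from E7_CPI to WNT_CPI was not called, and E7_CPI against WNT was not tested. The 2.12-fold response of KLF5 to CPI-203 on Wnt3a stands beside 5.97-fold in E7 medium. The difference between the responses was log2 -1.49 (SE 0.39, interval -2.36 to -0.62). That difference had an unadjusted p of 0.00322 and an adjusted p of 0.995 with 16 libraries, 1.00 with 15 and 0.637 with the block, so it was not called. No member was called for this difference, 1 had an unadjusted p under 0.05, and DESeq2's Wald test called 0, where edgeR called 0.0115% of all genes (0.00562% with 15 libraries and 0.0393% with the block). WNT_CPI against E7_CPI likewise had 0 members called by edgeR and 0 by DESeq2, with 3 at an unadjusted p under 0.05, and 0.386% of all genes called (0.0843% with 15 libraries and 0.534% with the block). In that comparison KLF5 differed by log2 0.69 (interval 0.08 to 1.29) and KLF2 by 1.12 (interval 0.11 to 2.14).

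Across all 8 groups the mean of KLF5 fell in the order WNT_CPI at 23.0, E7_CPI at 14.3, WNT at 10.9, WNT_ACT at 8.84, WNT_E7 at 7.50, WNT_CPI_ACT at 3.41, E7 at 2.40 and E7_ACT at 1.99 CPM. WNT_ACT and WNT_E7 overlapped, with WNT_E7 at 5.58 and 9.43 CPM, and so did WNT_CPI_ACT and E7. For KLF2 only WNT_CPI, at a mean of 1.78 CPM, and E7_CPI, at 0.817 CPM, stood clear, and the libraries of the other 6 groups lay between 0.0968 and 0.410 CPM. Both ends of WNT_CPI_ACT lay outside the E7, E7_ACT, WNT_E7 and WNT values, and E7 lay below WNT without overlap.

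KLF4 and KLF6 stood higher with CPI-203 in E7 medium and were called with 16 libraries but not with 15. KLF4 stood at 1.88 and 1.77 CPM in E7 and at 4.31 and 3.21 CPM in E7_CPI, the higher value being the rearranged column. Its log2 difference was 1.04 (SE 0.33, adjusted p = 0.0323) with 16 libraries and 0.81 (adjusted p = 0.199) with 15, and 0.63 (adjusted p = 0.101) with the block. KLF6 stood at 34.0 and 28.6 CPM in E7 and at 70.1 and 69.9 CPM in E7_CPI. It differed by 1.16 (SE 0.31, adjusted p = 0.0164) with 16 libraries and 1.16 (adjusted p = 0.0677) with 15, and with the block it was called (adjusted p = 0.00923). Leaving out E7 replicate 1, E7 replicate 2 or E7_CPI replicate 2 also ended these calls, at adjusted p values of 0.114, 0.128 and 0.0571 for KLF4 and of 0.0563, 0.0969 and 0.0672 for KLF6. With Wnt3a, KLF4 went from 2.84 and 2.83 CPM in WNT to 3.38 and 4.50 CPM in WNT_CPI, and KLF6 from 45.5 and 33.8 CPM to 55.3 and 59.9 CPM. Neither difference was called, at log2 0.48 (interval -0.24 to 1.19) and 0.54 (interval -0.15 to 1.23).

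KLF7, an activator of neuronal genes, barely differed with CPI-203, at log2 0.10 (interval -0.48 to 0.69) in E7 medium and 0.03 (interval -0.55 to 0.62) with Wnt3a. It stood at 25.8 and 31.3 CPM in E7, 29.1 and 32.2 CPM in E7_CPI, 25.8 and 24.99 CPM in WNT, and 24.7 and 27.3 CPM in WNT_CPI.

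None of the CtBP-binding members was called with CPI-203 at 24 h with 16 or 15 libraries. The values of KLF8 and KLF12 were lower with it in both media, and differences between these members were not tested. KLF8 stood at 25.6 and 18.8 CPM in E7, 11.9 and 13.9 CPM in E7_CPI, 22.4 and 17.4 CPM in WNT, and 13.6 and 11.7 CPM in WNT_CPI. KLF12, a repressor first described at the gene of AP-2α, stood at 25.3 and 19.7 CPM in E7, 13.1 and 12.05 CPM in E7_CPI, 34.9 and 20.1 CPM in WNT, and 19.96 and 13.7 CPM in WNT_CPI. The CPI-203 and control groups of KLF8 did not overlap in either medium, and those of KLF12 did not overlap in E7 medium and nearly met with Wnt3a. The differences were log2 -0.78 and -0.65 for KLF8 and -0.84 and -0.71 for KLF12, without and with Wnt3a, at adjusted p values of 0.0960, 0.167, 0.136 and 0.213 with 16 libraries. With the replicate block and 15 libraries, KLF8 with Wnt3a (adjusted p = 0.0223) and KLF12 without and with Wnt3a (0.0255 and 0.00205) were called, and KLF8 without Wnt3a was not (0.197). Leaving out either WNT_ACT library, in which KLF8 has its widest spread, let KLF8 pass in both media, at adjusted p values of 0.0210 and 0.0217 without Wnt3a and of 0.0451 and 0.0462 with it. KLF3, a repressor known from blood and fat cells, stood between 20.7 and 38.5 CPM in the 24 h libraries and differed by 0.18 (interval -0.23 to 0.59) and 0.21 (interval -0.21 to 0.62). Reads of KLF3 may include its overlapping antisense gene KLF3-AS1, and whether the counting used strand is not given in the sources used here.

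Among the SIN3A-binding members, neither was called with CPI-203 at 24 h with 16 or 15 libraries. KLF13, a repressor and activator first known from T cells, stood at 52.5 and 59.9 CPM in E7, 34.7 and 34.9 CPM in E7_CPI, 60.0 and 68.5 CPM in WNT, and 47.9 and 42.8 CPM in WNT_CPI. The CPI-203 libraries lay below the control libraries in both media. Its log2 differences were -0.69 (SE 0.24, adjusted p = 0.0502 with 16 libraries, 0.181 with 15 and 0.00626 with the block) and -0.50 (SE 0.24, adjusted p = 0.146, 0.186 and 0.0210). In E7 medium KLF13 stood at the threshold, and leaving out any of 7 libraries of the 48 h groups moved its adjusted p to between 0.0297 and 0.0494. KLF10, induced early by TGF-β and Activin-type signals, stood between 25.3 and 34.0 CPM in the 24 h libraries and differed by 0.27 (interval -0.51 to 1.05) and 0.00 (interval -0.78 to 0.78).

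**Figure D3:**
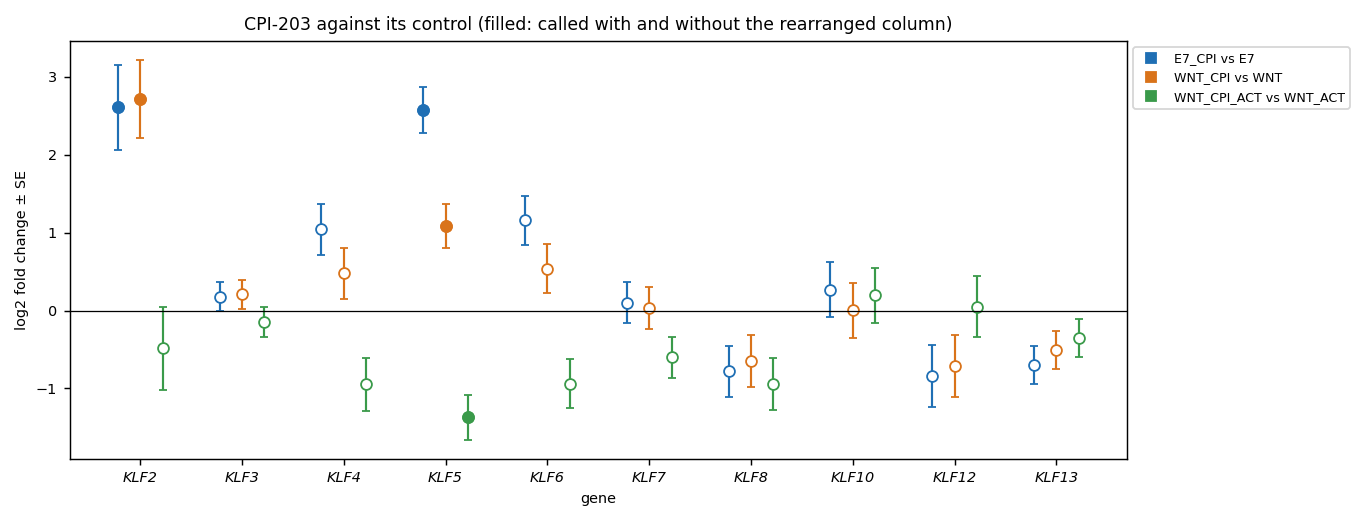
Log2 fold change of each KLF gene in 3 comparisons with CPI-203: at 24 h in E7 medium, at 24 h with Wnt3a, and at 48 h after CPI-203 on day 1 (points, with SE bars). Filled points passed the test with and without the rearranged column: KLF2 at 2.61 and 2.72, and KLF5 at 2.58, 1.08 and, on the other side of 0, -1.37.

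By the count alone, 4 of 10 members in E7 medium and 2 of 10 with Wnt3a were called with CPI-203, all higher. Of all genes, 15% and 13% were called higher, and 32.7% and 31% were called in either direction. Without the rearranged column the count in E7 medium was 2, where 8.24% of all genes were called higher. With the block, members were also called lower in each medium, as given above. The median over the members was log2 0.22 and 0.12 in these comparisons, against -0.05 and -0.01 over all genes tested.

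A day after CPI-203, KLF5 stood below its control. It was at 4.28 and 2.54 CPM in WNT_CPI_ACT and at 9.58 and 8.09 CPM in WNT_ACT, with no overlap. KLF5 fell 2.59-fold (log2 -1.37, SE 0.28, adjusted p = 0.0202 with 16 libraries and 0.0396 with 15), where 5.9% of all genes were called (3.64% with 15 libraries and 20.2% with the block). The call was lost without WNT_ACT replicate 1 (adjusted p = 0.0823), WNT_ACT replicate 2 (0.0536) or WNT_CPI_ACT replicate 2 (0.127).

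KLF4 was at 0.664 and 1.16 CPM in WNT_CPI_ACT, the lowest pair of its 8 groups, and at 1.41 and 2.11 CPM in WNT_ACT. The log2 difference was -0.95 (SE 0.34, adjusted p = 0.144 with 16 libraries, 0.188 with 15 and 0.0243 with the block). KLF6 at 35.3 and 21.0 CPM and KLF8 at 26.6 and 20.1 CPM in WNT_CPI_ACT each differed from WNT_ACT by -0.94, at adjusted p values of 0.117 and 0.136 with 16 libraries and of 0.0360 and 0.0116 with the block. The differences of KLF6 and KLF8 include the high WNT_ACT replicate 1 described above. Without WNT_ACT replicate 2, which leaves only that library in WNT_ACT, they were -1.34 and -1.42. KLF2 was at 0.344 and 0.0968 CPM in WNT_CPI_ACT and 0.410 and 0.211 CPM in WNT_ACT, on 4 to 16 counts. Its difference of -0.48 (interval -1.66 to 0.70) turned to 0.07 without WNT_ACT replicate 1 and to 0.14 without WNT_CPI_ACT replicate 2, so its direction is not known.

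The response to CPI-203 on Wnt3a therefore differed in sign between the days for KLF5, at 1.08 at 24 h and -1.37 at 48 h, and the test of the difference itself was called. The difference was log2 -2.46 (SE 0.40, adjusted p = 0.00299 with 16 libraries and 0.00733 with 15). For KLF2 it was -3.20 (SE 0.73, adjusted p = 0.0162 and 0.0299), a call lost without WNT replicate 1 (0.0609), WNT replicate 2 (0.0522) or WNT_ACT replicate 1 (0.0751). Of all genes, 13.3% were called for this difference (10.1% with 15 libraries and 33.3% with the block). The day, the Activin A and the time since CPI-203 was given change together here and cannot be told apart. With the block, KLF4 at -1.40 (adjusted p = 0.00945), KLF6 at -1.49 (0.0132) and KLF12 at 0.71 (0.0186) were also called, against 0.0718, 0.0512 and 0.456 with 16 libraries. In fits that leave 1 library in a group, KLF4 was at -1.87 without WNT_CPI_ACT replicate 2. KLF6 was at -1.87 without WNT_ACT replicate 2 and at -1.89 without WNT_CPI_ACT replicate 1.

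From WNT_CPI at 24 h to WNT_CPI_ACT at 48 h, KLF2, KLF4 and KLF5 fell. KLF5 fell by 2.75 on the log2 scale (SE 0.29, adjusted p = 0.000106 with 16 libraries and 0.000384 with 15), KLF2 fell by 2.99 (SE 0.51, adjusted p = 0.00164 and 0.00392), and KLF4 fell by 2.11 (SE 0.34, adjusted p = 0.00124 and 0.00260). For each of them every WNT_CPI_ACT library lay below every WNT_CPI library. KLF6 went from 55.3 and 59.9 CPM to 35.3 and 21.0 CPM, at -1.03 (SE 0.31), with an adjusted p of 0.0324 with 16 libraries, 0.0503 with 15 and 0.00831 with the block. Leaving out E7_CPI replicate 2, WNT_CPI replicate 1, WNT_CPI replicate 2 or WNT_CPI_ACT replicate 2 also ended that call (adjusted p = 0.0503, 0.0818, 0.125 and 0.198). In this comparison 26.9% of all genes were called (22.8% with 15 libraries).

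KLF8, KLF12 and KLF13 were higher in WNT_CPI_ACT than in WNT_CPI, at log2 0.88, 0.94 and 0.63. They were not called with 16 libraries (adjusted p = 0.0737, 0.109 and 0.0827) and were called with the block (0.00502, 0.000386 and 0.00831), where 48.4% of all genes were called. KLF8 stayed at 0.89 without either WNT_ACT library. KLF12 was at 1.35 without WNT_CPI_ACT replicate 2, which rests on the higher replicate 1 alone in WNT_CPI_ACT. KLF12 stood at 42.8 and 22.01 CPM in WNT_CPI_ACT and KLF13 at 59.8 and 80.1 CPM. Compared with WNT_ACT, at 38.5 and 24.1 CPM for KLF12 and 74.2 and 104 CPM for KLF13, they differed by 0.05 (interval -0.82 to 0.93) and -0.35 (interval -0.88 to 0.19). The CPI-203 libraries of KLF12 at 48 h thus lay around the control values, unlike those at 24 h, though the difference between the days was called only by the block with 15 libraries (adjusted p = 0.0186), and not by the block with 16 (0.0525).

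**Figure D4:**
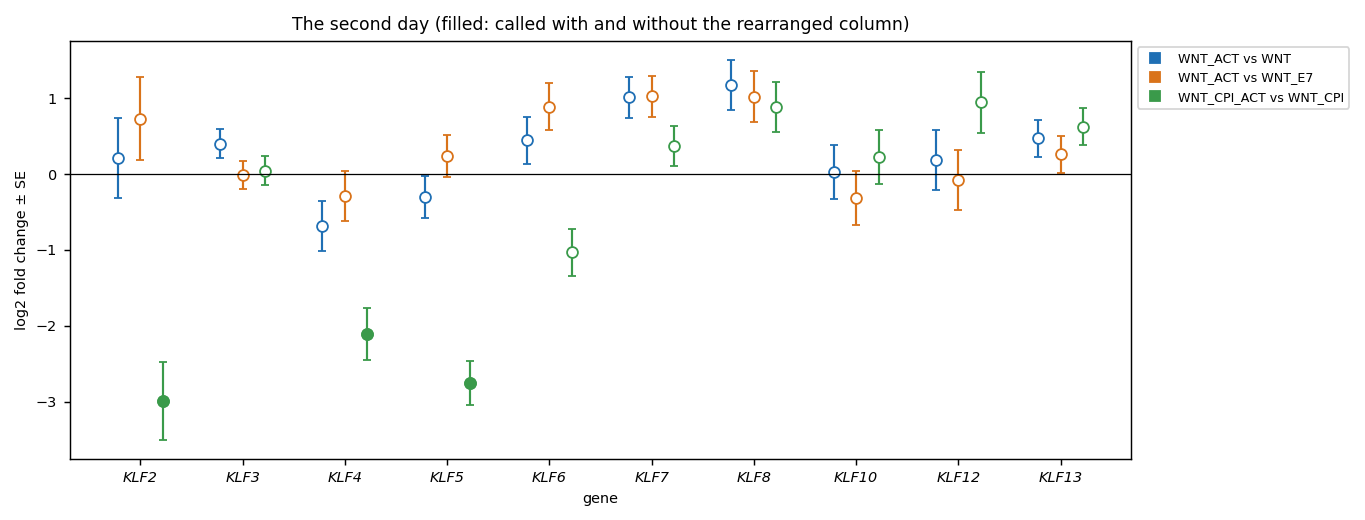
Log2 fold change of each KLF gene across the second day: WNT_ACT against WNT, WNT_ACT against WNT_E7, and WNT_CPI_ACT against WNT_CPI (points, with SE bars). Filled points passed the test with and without the rearranged column: KLF2 at -2.99, KLF4 at -2.11 and KLF5 at -2.75, all in the last comparison.

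In the groups primed with Wnt3a, KLF7 and KLF8 stood higher with Activin A than without, and neither was called by edgeR with 16 or 15 libraries. KLF7 stood at 19.9 and 30.4 CPM in WNT_E7 and at 62.5 and 39.9 CPM in WNT_ACT, and KLF8 at 23.6 and 20.6 CPM in WNT_E7. The groups did not overlap for either gene. Both differed by log2 1.02 (SE 0.27 for KLF7 and 0.33 for KLF8), with adjusted p values of 0.111 and 0.221 with 16 libraries and of 0.0415 and 0.0209 with the block. By edgeR without the block 0 of 10 members were called, with 3 at an unadjusted p under 0.05, and DESeq2 called 1, KLF7 (adjusted p = 0.0134). Of all genes, 0.882% were called (0.124% with 15 libraries and 6.35% with the block). Against WNT at 24 h, KLF7 differed by 1.01 (adjusted p = 0.0951, and 0.0337 with the block) and KLF8 by 1.18 (0.117, and 0.00894 with the block). Here too 0 members were called with 16 libraries, 2 had an unadjusted p under 0.05 and DESeq2 called 2, where 1.68% of all genes were called (0.629% with 15 libraries and 9.26% with the block). Without WNT_ACT replicate 2, KLF8 was called against WNT_E7 (0.0250) and WNT (0.0154).

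Targets of Activin and Nodal signals showed that these libraries stand apart within their groups. Of the 10 genes of that list, 0 were called for WNT_ACT against WNT_E7 by edgeR (2 higher with the block), 6 had an unadjusted p under 0.05 and DESeq2 called 4, with a median of log2 2.00 against -0.01 over all genes. CER1, a secreted Nodal antagonist, had 76881 counts in WNT_ACT replicate 1 and 4650 in replicate 2. NODAL, the ligand, had 11808 and 5788 there, and LEFTY1, its inhibitor, had 7713 and 1388. In WNT_E7 NODAL had 281 and 1542 counts and LEFTY1 had 32 and 438. These 3 genes were named after their values were seen. WNT_ACT replicate 1 was thus the higher library for them as for KLF6, KLF7 and KLF8, and their part in the KLF values was not tested.

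Without Wnt3a, KLF7 stood at 55.9 and 41.9 CPM in E7_ACT and 25.8 and 31.3 CPM in E7, at log2 0.78 (interval 0.19 to 1.36, adjusted p = 0.334). It was the 1 member with an unadjusted p under 0.05 in this comparison, in which edgeR called 0 members, DESeq2 called 0, and 0.599% of all genes were called (0.281% with 15 libraries and 4.16% with the block). KLF8 differed there by -0.05 (interval -0.77 to 0.68). E7 and E7_ACT differ in day as well as in Activin A, and these cannot be told apart. Neither KLF3 nor KLF10 was called in any comparison by edgeR, with 16 or 15 libraries or with the block. KLF10 stood at 19.996 and 52.7 CPM in WNT_CPI_ACT, a spread wider than in any other of its groups.

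Some members differed between the replicates in the same direction across groups. Same-numbered libraries deviated together over 12586 genes in the 7 groups other than E7_CPI (correlations 0.539 to 0.925). Such differences are thus not particular to the members, and the share of all genes that show them was not counted. KLF8 and KLF12 were higher in replicate 1 than in replicate 2 in all 7 groups other than E7_CPI, by 0.20 to 1.19 and by 0.36 to 0.96 on the log2 scale. KLF10 and KLF13 were lower in replicate 1 in 6 of these 7 groups. In E7_CPI the replicates differed by -0.22 for KLF8 and by 0.13 for KLF12. What the replicate number stands for is not given in the labels, and its part in these results was not tested beyond the block.

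**Figure D5:**
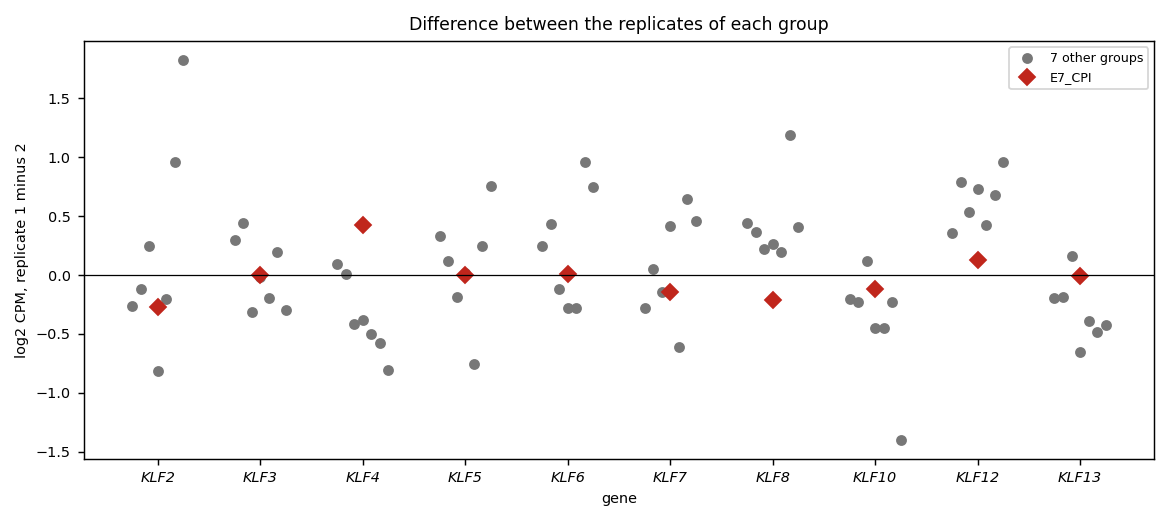
Log2 CPM of replicate 1 minus replicate 2 for each KLF gene, with grey circles for the 7 other groups and a red diamond for E7_CPI. KLF8 and KLF12 lie above 0 in all 7 other groups, by up to 1.19 and 0.96, while E7_CPI lies near 0 for most genes.

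Over the 8 group means of log2 CPM, Pearson's r was 0.83 between KLF2 and KLF5, 0.84 between KLF2 and KLF6 and 0.80 between KLF5 and KLF6. It was 0.97 between KLF12 and KLF13 and 0.90 between KLF8 and KLF13, and -0.74 between KLF2 and KLF12. KLF3, KLF7 and KLF10 had r of 0.01, -0.23 and -0.07 with KLF2, and of -0.04, 0.60 and 0.02 with KLF8. KLF7 had 0.20 with KLF12 and 0.38 with KLF13, and KLF4 had 0.69 with KLF2. The 8 points share libraries, replicate numbers and the CPI-203 contrast, so these are descriptions. Among all genes with a mean log2 CPM over 1, the patterns most like KLF2 were those of LYST (r = 0.991) and MIDN (0.987). For KLF5 they were CKB (0.964) and REPS1 (0.960), for KLF4 AKAP8 (0.957) and ATP1B1 (0.954), and for KLF6 RPS28 (0.977) and CDC42BPG (0.969). The nearest to KLF12 were GSTM1 (0.993) and TRAF5 (0.993), to KLF13 ARNT (0.991) and KIAA2026 (0.986), to KLF8 SLITRK4 (0.978) and BACE2 (0.978), and to KLF7 NFASC (0.966) and ADAM19 (0.955). KLF3 and KLF10 had no match as near, with CIITA (0.871) and SNX24 (0.852) for KLF3 and SLAIN2 (0.893) and LOC728024 (0.843) for KLF10.

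Outside the 10, 8 further KLF genes were in the tables and 5 passed the filter. KLF11, a SIN3A-binding repressor closely related to KLF10, fell with CPI-203. It stood at 10.8 and 12.3 CPM in E7, 1.51 and 1.76 CPM in E7_CPI, 13.6 and 11.9 CPM in WNT, and 2.20 and 1.87 CPM in WNT_CPI. The groups were far apart, at log2 -2.83 (SE 0.19, adjusted p = 5.87e-06 with 16 libraries and 0.000353 with 15) and -2.64 (SE 0.19, adjusted p = 7.03e-06 and 2.95e-05). At 48 h KLF11 was back at 15.4 and 14.2 CPM in WNT_CPI_ACT, beside 13.6 and 11.2 CPM in WNT_ACT. KLF1, the erythroid factor, fell on Wnt3a from 13 and 15 counts in WNT to 5 and 3 in WNT_CPI (log2 -1.85, SE 0.55, adjusted p = 0.0260 and 0.0157). In E7 medium 0 of the 5 were called higher and 1 lower (0 and 2 with 15 libraries), and with Wnt3a 0 were called higher and 2 lower, where 32.7% and 31% of all genes were called. Their medians were -0.12 and -0.68.

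The SP genes encode the sister family with the same zinc fingers, and all 9 were tested. With Wnt3a at 24 h 2 rose and 0 fell: SP5 and SP8, both known Wnt targets, named after their values were seen. SP8 stood at 3.002 and 3.58 CPM in E7 and 33.3 and 30.1 CPM in WNT (log2 3.27, SE 0.35, adjusted p = 0.00226 with 16 libraries and 0.00561 with 15). SP5 went from 3 counts in each E7 library to 3341 and 3246 counts in WNT. With CPI-203, SP6, known from tooth and limb development, rose from 1.10 and 1.29 CPM in E7 to 5.08 and 3.96 CPM in E7_CPI (log2 1.92, adjusted p = 0.00571 and 0.0422). It also rose from 1.99 and 2.88 CPM in WNT to 13.6 and 11.5 CPM in WNT_CPI (2.37, adjusted p = 0.00169 and 0.00359). SP7, the bone factor, had 3 and 16 counts in E7 and 0 in both E7_CPI columns, and 12 and 15 counts in WNT and 1 and 2 in WNT_CPI. In all, 1 SP gene was called higher and 3 lower in E7 medium (1 and 0 with 15 libraries), and 1 higher and 1 lower with Wnt3a, where 32.7% (17.5% with 15 libraries) and 31% of all genes were called. Their medians with CPI-203 were -0.36 and -0.03.

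Partners of the KLF proteins were tested for 9 of 10 corepressor and coactivator genes. CPI-203 was followed by 2 higher and 4 lower calls in E7 medium (1 and 2 with 15 libraries) and by 1 higher and 3 lower with Wnt3a (1 and 2 with 15 libraries), with medians of 0.00 and 0.09. Of all genes, 32.7% (17.5% with 15 libraries) and 31% (26.5%) were called. HDAC1, the deacetylase of the SIN3 complex, fell from 126 and 129 CPM in E7 to 74.4 and 76.9 CPM in E7_CPI (log2 -0.75, adjusted p = 0.00198 and 0.0256) and from 125 and 134 CPM in WNT to 77.8 and 75.5 CPM in WNT_CPI (-0.76, adjusted p = 0.00188 and 0.00464). SAP30, a scaffold of the same complex, rose by 0.70 (adjusted p = 0.00228 and 0.0199) and 0.67 (0.00315 and 0.00814). EP300 could not be read, since 625 of 626 genes of its chromosome had no count in any library.

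The 6 genes of ubiquitin ligases that act on KLF proteins gave 0 calls with CPI-203 at 24 h by edgeR without the block in either medium. There were 0 at an unadjusted p under 0.05 and 0 called by DESeq2. With the block this did not hold in E7 medium. Of all genes, 32.7% and 31% were called without the block. Their medians were 0.04 and 0.09. Of 5 genes of the ERK5 and MEF2 route to KLF2 and KLF4, 1 rose and 0 fell in each medium, where 32.7% and 31% of all genes were called, with medians of -0.09 and -0.14. It was MEF2C, a transcription factor of this route, which went from 0.310 and 0.119 CPM in E7 to 1.34 and 1.42 CPM in E7_CPI (log2 2.67, adjusted p = 0.000816 and 0.00693) and from 0.164 and 0.140 CPM in WNT to 0.735 and 0.779 CPM in WNT_CPI (2.29, adjusted p = 0.00264 and 0.00642).

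The naive pluripotency genes, which are linked to KLF2, KLF4 and KLF5 in embryonic stem cells, were mixed. Of 8 tested, 2 were called higher and 4 lower with CPI-203 in E7 medium (0 and 3 with 15 libraries), and 2 higher and 4 lower with Wnt3a (2 and 4 with 15 libraries). Of all genes, 32.7% (17.5% with 15 libraries) and 31% (26.5%) were called. The medians were -1.98 and -1.20, against -0.05 and -0.01 over all genes. PRDM14, a repressor that guards the pluripotent state, fell from 65.8 and 94.6 CPM in E7 to 13.97 and 14.1 CPM in E7_CPI (log2 -2.52, adjusted p = 0.000232 and 0.00514), and from 61.7 and 77.8 CPM in WNT to 3.72 and 7.57 CPM in WNT_CPI (-3.63, adjusted p = 3.30e-05 and 0.000137). DPPA3, a marker of naive cells, went from 56 and 45 counts in E7 to 2 and 0 in E7_CPI, and from 10 and 9 in WNT to 0 and 0 in WNT_CPI. The 2 genes called higher were TFCP2L1 and TBX3, named after their values were seen. TFCP2L1 stood at 11.0 and 10.3 CPM in WNT and 29.5 and 25.4 CPM in WNT_CPI (1.37, adjusted p = 0.0162 and 0.0276), and TBX3 at 0.539 and 0.756 CPM in WNT and 4.16 and 4.01 CPM in WNT_CPI (2.66, adjusted p = 0.00965 and 0.0182). KLF17, a KLF gene of naive human cells, had at most 3 counts in any library.

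Markers of other cell types moved with CPI-203 too, where 32.7% of all genes were called in E7 medium and 31% with Wnt3a. The shares of all genes with 15 libraries are those given above. The summed level of 7 endothelial markers, cells in which KLF2 is abundant, was 71.7 to 72.9 CPM in E7 and 67.6 to 75.3 CPM in WNT. It was 17.4 to 17.6 CPM in E7_CPI, where ROBO4 was at 0, and 11.4 to 17.8 CPM in WNT_CPI, where CDH5 was at 0. TEK carried most of this sum, with 56.5 and 56.7 CPM in E7 and 12.95 and 13.4 CPM in E7_CPI. ESAM went the other way, from 7 and 8 counts in E7 to 40 and 33 in E7_CPI and from 4 and 2 in WNT to 27 and 46 in WNT_CPI (adjusted p = 0.0100 and 0.00294 with 16 libraries, 0.0572 and 0.00665 with 15). Of the 5 endothelial markers tested, 1 was called higher and 3 lower in E7 medium (0 and 3 with 15 libraries), and 1 higher and 4 lower with Wnt3a. The 8 fibroblast markers summed to 642 to 906 CPM in E7, 685 to 693 in E7_CPI, 475 to 735 in WNT and 379 to 489 in WNT_CPI, with DCN at 0 in all 8 groups. Of the 5 fibroblast markers tested, 0 were called higher and 3 lower in each medium with 16 libraries, with medians of -0.57 and -0.81. Fewer passed in E7 medium with 15 libraries. The 9 trophoblast and amnion markers summed to 18.4 to 19.1 CPM in E7, 11.6 to 11.7 in E7_CPI, 22.3 to 25.1 in WNT and 9.09 to 13.7 in WNT_CPI. Single members of that list differed in direction: 2 of 7 tested were called higher and 1 lower in E7 medium (1 and 0 with 15 libraries), and 2 higher and 2 lower with Wnt3a, with medians of 0.74 and -0.15. KRT7 went from 433 and 557 counts in E7 to 58 and 41 in E7_CPI, while HAND1 went from 1 and 0 to 34 and 33, and TFAP2A from 6 and 3 to 16 and 16. The 8 stem cell markers summed to 9155 to 10313 CPM in E7, 7591 to 7807 in E7_CPI, 9067 to 9972 in WNT and 5576 to 6374 in WNT_CPI, with none at 0. PODXL held much of that sum, at 2851 and 3274 CPM in E7 and 4073 and 4218 CPM in E7_CPI. Of these 8, 0 were called higher and 4 lower in E7 medium and 0 and 5 with Wnt3a (0 and 4 with 15 libraries), with medians of -1.03 and -1.30. TDGF1, the Nodal coreceptor, fell from 536 and 897 CPM in E7 to 34.6 and 37.4 CPM in E7_CPI (adjusted p = 0.000166 and 0.00446). NANOG, a core pluripotency factor outside the 8, fell from 71.6 and 112 CPM to 0.933 and 0.809 CPM (adjusted p = 4.42e-06 and 0.000285). Marker genes named here were chosen after their values were seen. Their part in the results with CPI-203 was not tested.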

How the data were processed

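The deposited values were raw counts per gene, 1 table for each replicate number, made by the authors. Per the submitters' processing notes, the tools were MACS2, deepTools, Bowtie2, featureCounts and DESeq2. Which aligner and build the RNA counts rest on is not given in the sources used here. The tables held 27360 and 27348 genes, joined on gene ID. The E7_CPI replicate 1 column, with 12 empty cells, was aligned to the genes as the replicate 2 table lists them. Of the other files, the deposited combined list of ATAC peak positions from 14 libraries was not used here.

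Genes were kept by edgeR's filterByExpr by group. One model of the 8 groups without a replicate block was fitted in edgeR 4.0.16 (R 4.3.3, limma 3.58.1) with TMM scaling and the quasi-likelihood F-test, 2-sided, with Benjamini-Hochberg adjustment over all genes tested. SE are the log2 fold change divided by the square root of F, and intervals are 95% and cover 1 value, not the family of 120. Scripts were tested on simulated data. The KLF genes and all gene lists were chosen with earlier results of these data known. All members were named in each comparison. The plan was to name, of each list, the 2 called genes with the largest change with CPI-203. That plan was not kept for the Activin and Nodal targets or the core pluripotency genes. Some further genes were named after their values were seen, as stated with them. For each member the 2 most alike genes over the 8 group means of log2 CPM were named. EP300 was named because its chromosome lacks counts.

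Same-numbered libraries deviated together in 7 groups (correlation of deviations from the group means 0.539 to 0.925 over 21 pairs of groups, 12586 genes) but not with E7_CPI (-0.148 to -0.0444), so the replicate block without the rearranged column is given where it changes a call. The biological coefficient of variation was 0.271 with 16 libraries, 0.290 with 15 and 0.122 with the block and 15. Alternatives were the replicate block, no filter, a filter of 1 CPM in 2 libraries, DESeq2 size factors, library totals alone, DESeq2 1.42.0 and leaving out each library; added after seeing the data were the block without the rearranged column and the E7_CPI columns averaged to 1 library.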

Additional observations from a re-analysis of the deposited data

Results flagged for a closer look

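The response of KLF2 to CPI-203 on Wnt3a differed between the days, with a difference, 48 h minus 24 h, of log2 -3.20 (SE 0.73, adjusted p = 0.0162 by edgeR's quasi-likelihood test). At 24 h both WNT_CPI libraries lay above both WNT libraries, and at 48 h the WNT_CPI_ACT and WNT_ACT libraries overlapped.

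The response of KLF5 differed in the same way, by log2 -2.46 (SE 0.40, adjusted p = 0.00299). It was higher with CPI-203 in 2 of 2 libraries at 24 h and lower in 2 of 2 at 48 h. The day and Activin A change together in these comparisons and cannot be told apart.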

How the results depend on the processing

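The counts of members called held within 1.5 times under no filter, the stricter filter, DESeq2 size factors and library totals. With the replicate block the counts were 7 for E7_CPI against E7 (4 without the block), 5 for WNT_CPI against WNT (2), 2 for WNT_ACT against E7_ACT (1), 2 for WNT_ACT against WNT_E7 (0), 3 for WNT_CPI_ACT against WNT_ACT (1), 2 for WNT_ACT against WNT (0), 7 for WNT_CPI_ACT against WNT_CPI (4) and 4 for the CPI-203 difference between the days (2). With the block and without the rearranged column they were 5 for WNT_CPI against WNT, 2 for WNT_ACT against E7_ACT, 2 for WNT_ACT against WNT_E7, 4 for WNT_CPI_ACT against WNT_ACT, 2 for WNT_ACT against WNT, 7 for WNT_CPI_ACT against WNT_CPI and 5 for the difference between the days. DESeq2's Wald test called 2 for WNT_ACT against E7_ACT, 1 for WNT_ACT against WNT_E7, 2 for WNT_CPI_ACT against WNT_ACT, 2 for WNT_ACT against WNT and 4 for the difference between the days. With the E7_CPI columns averaged to 1 library, 2 were called for E7_CPI against E7. Apart from the column's removal, the cause was not tested.

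Leaving out each library in turn gave 0 to 1 members for WNT against E7, 2 to 6 for E7_CPI against E7, 1 to 3 for WNT_CPI against WNT, 0 to 2 for WNT_ACT against E7_ACT, 0 to 1 for WNT_ACT against WNT_E7, 0 to 2 for WNT_CPI_ACT against WNT_ACT, 0 to 1 for WNT_ACT against WNT, 3 to 5 for WNT_CPI_ACT against WNT_CPI, 1 to 3 for the difference between the days, and 0 for the other 3 comparisons. Direction changed in 3 such fits among the 63 member values that were called or at least 0.4 in size: KLF2 for WNT_CPI_ACT against WNT_ACT at 0.07 without WNT_ACT replicate 1 and 0.14 without WNT_CPI_ACT replicate 2 (range -1.65 to 0.14), and KLF6 for WNT_ACT against WNT at -0.11 without WNT_ACT replicate 1 (range -0.11 to 0.84). A further 57 smaller values, none called in any setting, were not followed singly, and 36 of them changed sign in some setting.

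Over all genes, the block without the rearranged column called 414 against 105 for WNT against E7, 9417 against 5374 for WNT_CPI against WNT, 7 against 2 for the interaction, 741 against 104 for E7_ACT against E7, 2024 against 667 for WNT_ACT against E7_ACT, 1130 against 153 for WNT_ACT against WNT_E7, 3590 against 1024 for WNT_CPI_ACT against WNT_ACT, 1648 against 292 for WNT_ACT against WNT, 8608 against 4667 for WNT_CPI_ACT against WNT_CPI and 5923 against 2313 for the difference between the days. DESeq2 called 303 for WNT against E7, 222 against 67 for WNT_CPI against E7_CPI, 33 for the interaction, 440 for E7_ACT against E7, 1126 for WNT_ACT against E7_ACT, 694 for WNT_ACT against WNT_E7, 1825 for WNT_CPI_ACT against WNT_ACT and 895 for WNT_ACT against WNT. Averaging the E7_CPI columns left 3072 of 5671 for E7_CPI against E7. The count of members with an ATAC peak at the start site, with its other windows, was not run. KLF2 had the fewest counts of the members, 4 to 79 per library, then KLF4 with 29 to 185; the effect of depth was not tested.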
